A study of Mus musculus with 2 samples.

Results

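The genes described here are the C/EBP transcription factors Cebpa, Cebpb, Cebpd, Cebpe and Cebpg and the neutrophil granule genes Mpo, Elane, Prtn3, Ctsg and Lyz2. Members were the probe sets whose only gene symbol in the platform annotation was 1 of these 10. The array held 13 such probe sets for 9 of the 10 genes, among 18193 genes with a probe set of their own. Cebpe had none and was not analysed here. RNA was taken from G1E cells, mouse erythroid progenitors of an established line without GATA-1. They carried ER-GATA-1(V205G), an estrogen receptor fusion of a GATA-1 mutant with impaired FOG-1 binding, so the untreated cells also held the fusion. The groups were untreated cells at 0 h (1 array) and cells after 24 h in 1 µM estradiol, the ligand that switches the fusion on (1 array). With 1 array a group no test was possible, and the fusion's activity, estradiol itself and 24 h of culture cannot be told apart. Nothing in the labels says how the fusion was delivered or whether the cells were 1 clone.

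C/EBP proteins are leucine zipper factors that bind DNA as dimers. In blood formation C/EBPα directs progenitors towards granulocytes and monocytes, C/EBPε drives late neutrophil maturation, and C/EBPβ takes over when granulocytes are made under stress. Myeloperoxidase and the serine proteases neutrophil elastase, proteinase 3 and cathepsin G fill the primary granules, which promyelocytes make first. The genes of those proteins are known targets of C/EBP factors working with PU.1, an ETS-family factor, and GATA-1 and PU.1 are known to restrain each other.

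The 5 granule genes shared a short sequence near their start sites, which is why these stretches are shown. A 7-base PU.1-like sequence, AGGAAGT, lay before the start site of Mpo, Elane, Prtn3, Ctsg and Lyz2. It was found in 5 of 5 granule promoters and in 0 of the 3 C/EBP promoters listed, against 9.35% of all 32851 promoters of the same 300 bases (250 before to 50 after the start). Other lists also held it more often than all promoters did. The share was 29.4% of 17 promoters of further primary granule, lysosomal and chaperone genes and 24.0% of 25 secondary and tertiary granule promoters. It was 30.4% of 23 myeloid receptor promoters and 12.9% of 31 promoters of C/EBP partners. Each stretch below is 100 bases 5′ to 3′ on the gene's strand (RefSeq, GRCm38.p6), in lower case with the match in capitals. Lyz2 carries the match on the opposite strand, so its capitals read as the reverse complement.
Mpo, chr11:87793541-87793640, plus strand: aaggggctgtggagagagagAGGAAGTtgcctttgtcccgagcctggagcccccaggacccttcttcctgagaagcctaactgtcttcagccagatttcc
Elane, chr10:79886208-79886307, plus strand: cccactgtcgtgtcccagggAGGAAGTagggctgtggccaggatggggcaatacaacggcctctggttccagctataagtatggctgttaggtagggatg
Prtn3, chr10:79879553-79879652, plus strand: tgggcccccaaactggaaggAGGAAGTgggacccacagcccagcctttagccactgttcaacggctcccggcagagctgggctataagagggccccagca
Ctsg, chr14:56102701-56102800, minus strand: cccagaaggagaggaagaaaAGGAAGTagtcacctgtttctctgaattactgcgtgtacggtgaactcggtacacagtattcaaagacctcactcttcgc
Lyz2, chr10:117282293-117282392, minus strand: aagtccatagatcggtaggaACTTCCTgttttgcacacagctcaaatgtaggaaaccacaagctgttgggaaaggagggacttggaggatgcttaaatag

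The first base of the match lay 223 bases before the start site in Mpo, 84 in Elane, 94 in Prtn3, 206 in Ctsg and 100 in Lyz2. Elane and Prtn3, which lie next to each other on chromosome 10, carried it at similar distances. In all, 7 patterns were searched on both strands, and this one was singled out after the matches were seen. The shorter PU.1 pattern GAGGAA, which can overlap it, matched 4 of 5 granule promoters and 28.3% of all promoters. The GATA site, GATA with A or T before it and A or G after it, matched 0 of the 8 member promoters and 29.8% of all. The C/EBP pattern TTGCNNAA matched 0 of 8 and 10.8% of all, and its wider form TTNCNNAA matched Lyz2 alone and 40.7% of all. CCAAT matched Cebpg and Elane and 37.4% of all, and the Myb pattern AACNG matched 8 of 8 and 80.3% of all. A match describes letters in this window and shows no binding.

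**Figure D1:**
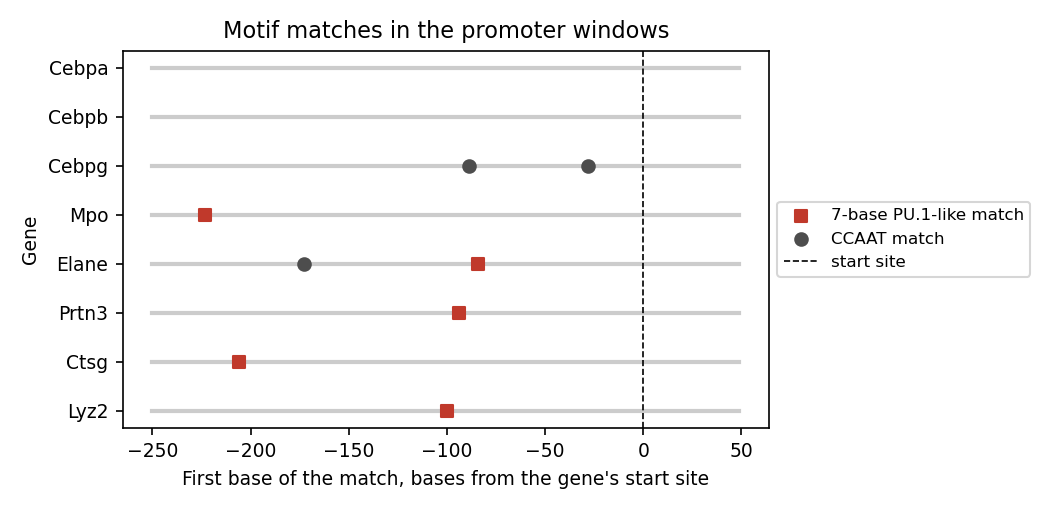
Positions of the 7-base PU.1-like match and of CCAAT in the promoter windows of 8 genes, in bases from the start site (grey lines run from 250 bases before to 50 after it). All 5 granule genes carry a square, from 223 to 84 bases before the start, and Cebpa, Cebpb and Cebpg carry none.

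Signals are in arbitrary units scaled by the authors, and levels of different probe sets are not compared. A probe set counted as measured where both arrays reached a floor of 95.2, the 50th percentile of all signals, and its ratio is estradiol over untreated. Ratios and bounds not marked as fold are on the log2 scale. Of all genes, 10240 of 18193 (56.3%) were measured on their brightest probe set, the 1 taken for a gene. Another 6764 (37.2%) were below the floor on both arrays. Probe sets of the same gene differed in log2 ratio with a pooled SD of 0.25, so 2 SD is 0.50. This SD covers probe noise within the same RNA and not the spread between cultures.

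Of the 9 genes, Cebpb and Cebpg were measured, and Mpo and Cebpd reached the floor on the estradiol array only. Cebpa, Elane, Prtn3, Ctsg and Lyz2 lay below it on both arrays, which is 5 of 9 beside 37.2% of all genes. No member was 2-fold higher or lower among the 2 measured. Over all 10240 measured genes the share past 2-fold was 2.04% upward and 1.1% downward, so none past the line in 2 genes is no result about the members. Over probe sets it was 2.03% upward and 1.01% downward, and none of the 5 measured member probe sets passed the line. In this bulk RNA fewer cells of a type and less RNA per cell cannot be told apart.

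**Figure D2:**
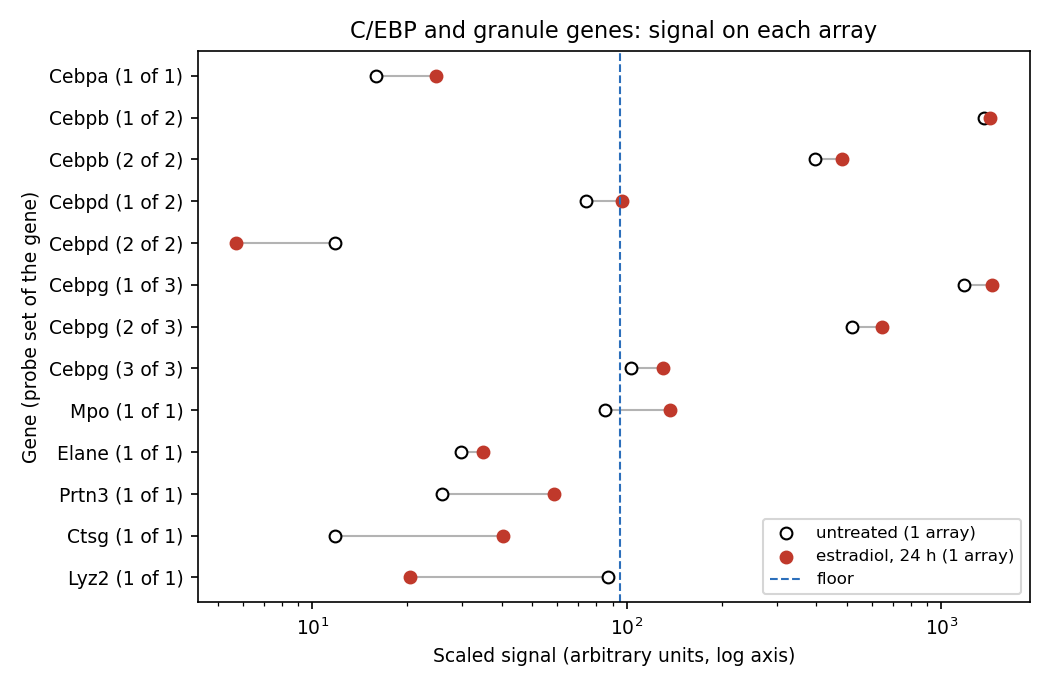
Scaled signal (log axis) of each of the 13 probe sets on the untreated array (open circles) and the estradiol array (red), with the floor of 95.2 as a dashed line. Both Cebpb and all 3 Cebpg probe sets lie to the right of the floor on both arrays, while 4 of the 5 granule genes lie to its left on both.

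Cebpb, the factor of stress granulopoiesis, was expressed at nearly equal signal on both arrays. Its brighter probe set read 1365 untreated and 1432 with estradiol, a log2 ratio of 0.07. The other Cebpb probe set gave signals of 395 and 484 (log2 ratio 0.29). Both were higher with estradiol, though scaling the arrays to a common median turned the brighter 1 to -0.04, and the gap between them is within the 2 SD of 0.50. Of all measured genes, 40.9% had a ratio at least as high as the brighter probe set.

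Cebpg encodes a short C/EBP protein without an activation domain that pairs with other leucine zipper factors, ATF4 among them. Its brightest probe set read 1179 untreated and 1447 with estradiol, a log2 ratio of 0.30 or 1.23-fold. The second read 519 and 648 (0.32) and the third, close to the floor, 103 and 130 (0.33). All 3 were higher with estradiol and nearly equal in ratio, though each lies within 2 SD of no difference, and all 3 carry the same accession in the annotation. Of the 2020 genes with 3 or more measured probe sets, 7.23% had every ratio at or above the lowest of Cebpg, and 1.24% had ratios lying as close together. Genes with more than 3 probe sets have more ratios that can spread, which lowers both shares. Both limits were also taken from Cebpg itself, so the shares do not measure how unusual it is. Of all measured genes, 19.5% had a ratio at least as high as its brightest probe set.

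Cebpa, the factor of granulocyte commitment, read 15.9 untreated and 24.7 with estradiol. Both are below the floor, and no ratio was formed. Cebpd, which encodes an acute-phase C/EBP factor, read 74.2 and 96.6 on its brighter probe set, of which the second is just above the floor. Its other probe set read 11.8 and 5.70, below the floor on both arrays.

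**Figure D3:**
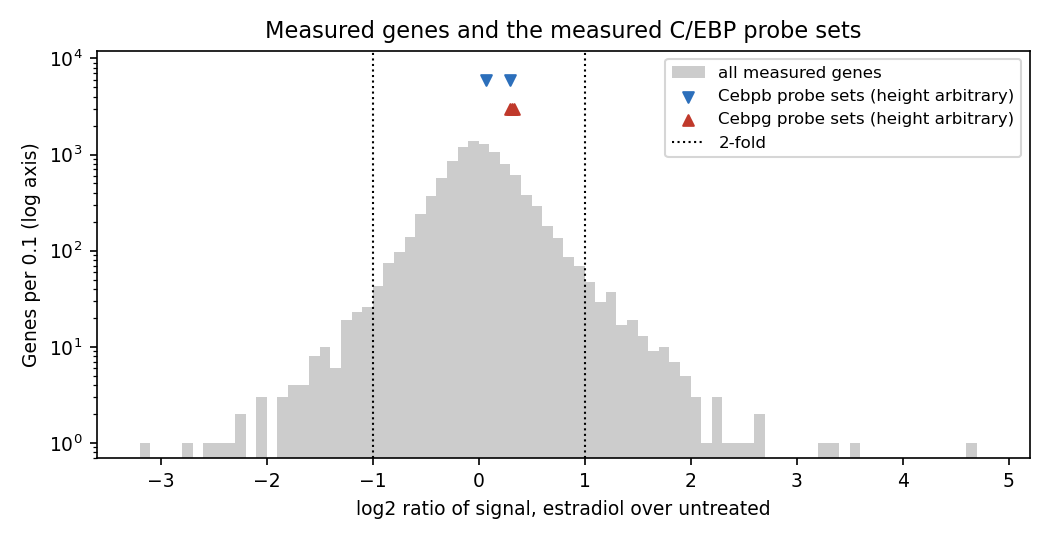
Distribution of log2 ratios over the 10240 measured genes (log axis), with the measured Cebpb (blue) and Cebpg (red) probe sets drawn as triangles at an arbitrary height. With the scaling used here all 5 triangles lie between 0.07 and 0.33, to the right of the centre at 0.00 and well inside the 2-fold lines.

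Among the granule genes only Mpo, which encodes myeloperoxidase, reached the floor. Its single probe set read 85.0 untreated and 137 with estradiol, a bound of at least 1.44-fold higher. On the log2 scale this bound was 0.53, and 0.47, 0.46 and 0.49 with a common median, quantile scaling and loess. In the lowest tertile of signal, 2 SD between probe sets of the same gene was 0.60. Of genes at the floor on at least 1 array, 2.18% had a ratio or bound past 2-fold upward, a line that Mpo did not reach. Elane, the elastase gene, read 29.7 and 34.8. Its neighbour Prtn3 read 25.9 and 58.8, and Ctsg, the cathepsin G gene, read 11.8 and 40.4. Lyz2, the lysozyme gene of phagocytes, read 87.0 untreated and 20.5 with estradiol. These 4 genes were below the floor on both arrays. Each granule gene had 1 probe set, so none can be checked against a second.

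Signals below the floor have no reliable order, so no direction is read from them. With no floor, on a scale of log2(signal + 16), 1 of the 9 members was past 2-fold upward (Ctsg, a difference of 1.02) and 1 downward (Lyz2, -1.50), beside 3.73% and 2.81% of all 18193 genes. With a lower floor, the 30th percentile of signals (31.7), Lyz2 had a bound of -1.46 on the log2 scale, where 2.83% of genes had a ratio or bound past 2-fold downward. Lyz1, a close copy of Lyz2, read 41.3 and 54.8 on its brightest probe set, below the floor on both arrays. Whether its transcript hybridises to the Lyz2 probes was not tested.

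The factors that work with C/EBP proteins were mostly expressed. Of 24 partners and regulators on the array 19 were measured, against 56.3% of all genes. Among these, 2 were at least 2-fold higher and 0 lower (2.04% and 1.1% of all measured genes). The median log2 ratio was 0.24 against 0.00 for all measured genes. The 2 were Ddit3 and Zfpm1. Ddit3 encodes CHOP, a C/EBP-family protein that pairs with C/EBPβ and blocks its binding to usual sites, and read 797 untreated and 3346 with estradiol (4.20-fold, with a log2 ratio of 0.85 on its other probe set). Zfpm1, the FOG-1 gene, read 3271 and 7485. Trib3, which encodes a pseudokinase partner of CHOP and ATF4, read 369 and 648, log2 ratios of 0.81 and 1.02 on its probe sets. Atf4 itself read 2101 and 2706, a log2 ratio of 0.36.

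Of the regulators of the granulocyte programme, Spi1, the PU.1 gene, read 299 untreated and 336 with estradiol, a log2 ratio of 0.17. Myb, a progenitor factor that acts with C/EBP proteins on the Mpo and Elane genes, read 7727 and 6879 (-0.17). Gfi1, a repressor needed for neutrophil formation, was below the floor at 38.1 and 26.7, and Trib1 and Trib2, whose proteins direct C/EBPα to degradation, were below it on both arrays. Rara, a retinoic acid receptor gene, read 195 and 101, and Socs3, a brake on cytokine signalling, 181 and 95.9. Both had lower signal with estradiol (log2 ratios of -0.94 and -0.92), with the second signal close to the floor. No other probe set of Socs3 was measured, and Rara had a single 1. With the arrays scaled to a common median, by quantiles or by loess, Rara passed 2-fold lower (-1.06, -1.05 and -1.05), so the 0 lower becomes 1. Rxra, which encodes the partner of retinoic acid receptors, read 176 and 322, a log2 ratio of 0.87, and none of its other probe sets was measured.

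Of 18 further primary granule, lysosomal and chaperone genes on the array 11 were measured, 0 passed 2-fold either way, 3 had a ratio above 0 and 8 below (49.9% of all measured genes were below 0), and the median log2 ratio was -0.07. The bright members were the chaperone genes Canx (8725 and 8337) and Hsp90b1 (7223 and 6967). Ms4a3, a gene of granulocyte-monocyte progenitors, was measured at 212 and 233. Cst7, which encodes a cystatin that inhibits lysosomal proteases, had signals of 288 and 51.0, the latter under the floor, so it was at least 3.03-fold lower. Over genes at the floor on at least 1 array, 1.29% had a ratio or bound at least 2-fold lower. Ctsc, whose enzyme activates the granule proteases, and Srgn, the granule proteoglycan gene, were below the floor on both arrays.

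Most secondary and tertiary granule genes were below the floor. This held for 17 of 29 on the array, against 37.2% of all genes. Among the 17 were Lcn2 (1.90 on both arrays), Camp, Cybb, S100a8, S100a9, Itgam and Padi4. Of the 8 measured, 7 had a ratio above 0, against 50.1% of all measured genes, and the median log2 ratio was 0.28. Ceacam1, an adhesion molecule also found outside neutrophils, was the 1 at least 2-fold higher, from 157 to 327 (log2 ratio 1.06). This is 1 of its 8 probe sets, and none of the others was measured. Ceacam1 fell short of 2-fold with a common median (0.94), with quantile scaling (0.96), with loess (0.96) and with no floor and 16 added (0.98). With the floor at the 70th percentile it had only a bound of 0.04. Tcn2, a cobalamin carrier gene, read 904 and 1087. Ngp, a specific-granule gene, read 208 and 196.

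The receptors that carry myeloid signals were also mostly dim. Of 20 on the array 13 were below the floor on both arrays, against 37.2% of all genes. Among the 13 were Csf3r, the receptor of the granulocyte growth factor (27.3 and 50.9), and Cd14. Of the 4 measured 0 passed 2-fold, and the median log2 ratio was 0.05. Fcgr2b read 541 and 501 and Csf1r 321 and 373. Il6ra had the highest ratio, from 214 to 382 (0.84), and its other probe set was not measured. Itgb2 and Fcgr3 passed below the floor with estradiol, with bounds on the log2 scale of -0.55 and -0.61. Tlr2 passed above it, from 43.9 to 97.4, a bound of 0.03.

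**Figure D4:**
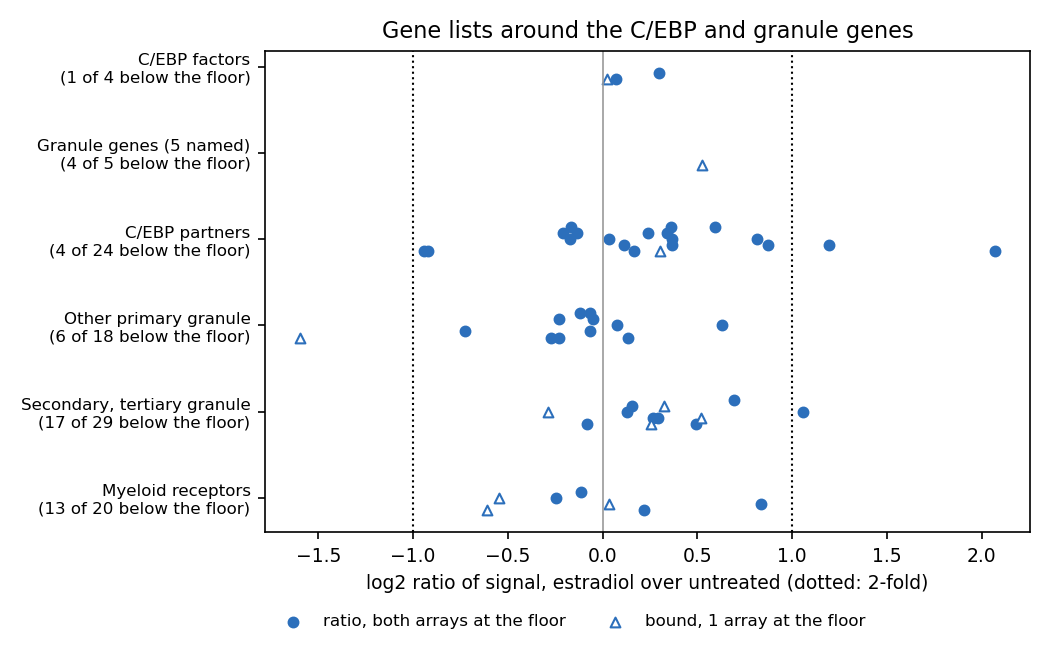
Log2 ratios of the listed genes, by list, with filled circles for genes at the floor on both arrays and open triangles for bounds. The 5 named granule genes give a single bound, for Mpo, because the other 4 are below the floor on both arrays, and among the 6 lists plotted Ddit3 is the circle farthest right at 2.07.

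Markers of other cells give the setting of these signals. Of 9 erythroid markers on the array 8 were measured, 6 with a ratio above 0 and 2 below, and Epb42 was below the floor. At least 2-fold higher were Alas2 (283 to 3430) and Sptb (1726 to 4767, a log2 ratio of 1.47, or 0.86 as the median over its probe sets). The brightest markers, Rhag (6257 and 6695) and Ermap (6006 and 5478), had log2 ratios of 0.10 and -0.13. Of 11 mast cell and basophil markers 5 were measured, with Tpsab1 higher (140 to 3418) and Cpa3 (6616 to 1146) and Ms4a2 (2093 to 791) lower. Of 12 monocyte and macrophage markers 3 were measured, none past 2-fold, and C1qa, C1qc and Marco were far below the floor. All 6 eosinophil markers were below the floor, against 37.2% of all genes. Of 8 megakaryocyte markers 4 were measured and of 11 lymphoid markers 1 (Pax5, 138 and 204), and none of these passed 2-fold. The part of these other genes in the signals of Mpo or Lyz2 was not tested.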

How the data were processed

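The deposited values were signal intensities, 1 linear value per probe set and array, which the authors made with GCOS per the submitters' processing notes (version not given in the sources used here). Their 2% trimmed means over 45101 probe sets were 500.0 on both arrays. Here the signals of the 45037 probe sets that are not controls were rescaled to a common trimmed mean (factors 0.999941 and 1.00006). Of these, 34945 had 1 gene symbol in the platform annotation, 932 several and 9160 none. All 13 member probe sets matched the RefSeq gene table of GRCm38.p6 by Entrez identifier. The floor was the 50th percentile (95.2). Where 1 array reached it, the other was set to it and the ratio is a bound, and a gene took its brightest probe set by mean signal. A call needed a 2-fold difference. The number of arrays, 1 a group, limits the precision.

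The members, lists and thresholds were chosen with earlier results of these data known. The genes named were drawn from the members, listed genes past 2-fold, the brightest 2 of a list, and the nearest neighbours of the members. Not every gene that meets these rules is named. Others (Trib1, Trib2, Trib3, Atf4, Spi1, Gfi1, Rara, Rxra, Socs3, Ms4a3, Ctsc, Srgn, Ngp, Csf3r, Il6ra, Itgb2, Fcgr3, Tlr2, Lyz1, R3hdm4, Wdr18, Nova1 and the dim markers) were named after their values were seen. The steps were tested on simulated data with changes placed only in genes well above the floor. Genes near or below the floor, most members among them, were not covered. Alternatives covered scaling, floor, probe set choice and threshold. Python 3.11.15 was used with numpy 2.4.6, pandas 2.3.3, scipy 1.17.1, statsmodels 0.14.6 and matplotlib 3.10.9.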

Additional observations from a re-analysis of the deposited data

How the results depend on the processing

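Cebpb had log2 ratios from -0.04 to 0.18 and Cebpg from 0.18 to 0.32 over 9 settings. Dividing the arrays to a common median moved the median of all measured genes to -0.11 and turned Cebpb to -0.04, which is still above that median. With no floor and 16 added to each signal, 1 member was at least 2-fold higher (Ctsg) and 1 lower (Lyz2), among 679 and 512 of all genes. With the floor at the 30th percentile (31.7), Mpo had a log2 ratio of 0.69, Cebpd of 0.38 and Lyz2 a bound of -1.46 on that scale. Cebpd was below the floor on both arrays with a common median, quantile scaling or loess. With the floor at the 70th percentile both Cebpd and Mpo were below it on both arrays. Over all genes, 439 were at least 2-fold higher and 288 lower with the floor at the 30th percentile, and 130 and 65 at the 70th. With the main floor the counts were 728 and 497 at 1.5-fold, and 49 and 21 at 3-fold. List medians moved by more than the SD between probe sets in 4 cases. At the 70th percentile the median was -1.55 for the Ctsg neighbours, -0.35 for the Mpo neighbours and -1.97 for the mast cell markers, each over fewer genes. The Ctsg value is the median of Gzmb (-3.11) and of Nova1 (0.0048), which lies on another chromosome. With no floor it was 0.017 for the lymphoid markers. No paired analysis was possible because each group held 1 array, and for the same reason no array could be left out. Signal over background limits what can be said of Cebpa and the granule genes, whose signals lie near or below the floor.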

Other observations

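Genes beside the members give a view of their chromosomes (gene order from RefSeq, GRCm38.p6). On chromosome 10, 17 listed genes around Elane and Prtn3 were on the array and 12 were measured. Of these, 11 had a ratio below 0, against 49.9% of all measured genes, with a median log2 ratio of -0.27. The list does not hold every gene of the region, and Plppr3, next to Prtn3, is not in it. The count takes the brightest probe set of each gene, and other probe sets of Ptbp1 (0.21 and 0.44), R3hdm4 (up to 0.40) and Wdr18 (up to 0.45) had ratios above 0. Med16, the nearest measured gene after Elane, read 992 untreated and 684 with estradiol (-0.54). Ptbp1, the nearest measured gene before Prtn3, read 9219 and 8925 (-0.05), and Plppr3, between them, was below the floor. Kiss1r, a peptide receptor gene, was the exception in the group, from 106 to 221 (2.09-fold higher), close to the floor untreated. It fell short of 2-fold with a common median (0.95), with quantile scaling (0.95), with loess (0.95) and with no floor and 16 added (0.96), and was below the floor at the 70th percentile.

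Ctsg lies in a cluster of granzyme and mast cell protease genes on chromosome 14. Of 12 others listed and on the array, 9 were below the floor on both arrays, against 37.2% of all genes. Mcpt8 (13.6 and 16.4) and Gzme (28.0 and 17.7), the nearest neighbours of Ctsg, were among the 9. Gzmb, the granzyme B gene of the same cluster, read 4260 untreated and 495 with estradiol.

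Around Mpo on chromosome 11, Tspoap1 read 208 and 214 on one side, and the peroxidase gene Lpo was below the floor on the other. Septin4, farther along, went from 89.6, below the floor, to 341, a bound of at least 3.59-fold higher, with a log2 ratio of 0.75 on its other probe set. Cebpa and Cebpg lie on chromosome 7 with 1 gene between them that has no probe set of its own. Pepd, next to Cebpg, read 962 and 1287 (0.42) and Slc7a10, next to Cebpa, 128 and 111 (-0.21). Next to Cebpb on chromosome 2, Tmem189 had a log2 ratio of 0.10 and Ptpn1 of 0.04.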
